A study of Mus musculus with 6 samples.

Results

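The 10 genes described here, Pecam1, Cdh5, Esam, Kdr, Flt1, Tek, Tie1, Vwf, Emcn and Plvap, are widely used markers of vascular endothelium, and they were followed in RNA-seq of brown adipose tissue (BAT) from wild-type (WT) and sST2 knockout (sST2-KO) mice. They were chosen by symbol, with no measured value in the rule but with earlier results of these data known. They are 10 of the 35976 rows of the count table. All 10 were among the 14542 genes that passed the filter on low counts. There were 3 WT and 3 sST2-KO libraries, each from the BAT of 10-week-old male C57BL/6J littermates. Soluble ST2 (sST2) is a secreted splice form of Il1rl1, and the sST2-KO mice carry a CRISPR deletion of the intron between exons 8 and 9, which holds the stop codon of that form. Every mouse of both groups had its BAT denervated and was then kept at 10 °C for 8 h, so no library comes from innervated or warm tissue. The deletion is in the germline and not restricted to a cell type.

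Endothelial cells line the blood vessels of BAT, one of the most densely vascularized tissues, in which vessels bring oxygen and fuel and carry heat away. The cells hold to each other through the adhesion proteins PECAM1, VE-cadherin (Cdh5) and ESAM. They respond to vascular endothelial growth factors (VEGFs) through KDR, the main signaling receptor, and FLT1, which binds VEGF tightly with weak signaling, and to angiopoietins through TEK (TIE2) and its partner TIE1. VWF is the large clotting protein stored in Weibel-Palade bodies. Endomucin (Emcn) is a surface sialomucin of capillaries and veins, and PLVAP forms the diaphragms of fenestrae and caveolae.

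Kdr, Flt1 and Emcn, which differed in direction or in whether they passed the test, have a RefSeq promoter window that lies clear of annotated exons. The sequences below run 5′ to 3′ on the strand of the gene, from 250 to 51 bases before its RefSeq start. They are the only windows among the 10 genes that had a RefSeq entry and lay clear of annotated exons. Kdr fell, Emcn rose and Flt1, the other VEGF receptor, did not pass the test. RefSeq's table is built on GRCm38.p6, and each window matched the GRCm39 genome exactly once, which gave its position. Capitals mark GGAA or its reverse complement TTCC, the core letters bound by ETS factors, a family with well-known roles in endothelial transcription. The Kdr window lies at chr5:76139166-76139365 on the minus strand, in an intron of a longer GENCODE transcript of the gene that starts upstream, that of Flt1 at chr5:147662872-147663071 on the minus strand, and that of Emcn at chr3:137046589-137046788 on the plus strand.
Kdr: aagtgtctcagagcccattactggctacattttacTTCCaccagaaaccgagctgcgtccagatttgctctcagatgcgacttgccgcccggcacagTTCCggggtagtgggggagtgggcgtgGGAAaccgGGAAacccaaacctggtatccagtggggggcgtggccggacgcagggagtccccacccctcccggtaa
Flt1: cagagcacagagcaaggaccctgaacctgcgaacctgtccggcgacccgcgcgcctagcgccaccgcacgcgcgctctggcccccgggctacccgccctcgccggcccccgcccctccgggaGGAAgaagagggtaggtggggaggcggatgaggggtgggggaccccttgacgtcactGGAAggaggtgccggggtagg
Emcn: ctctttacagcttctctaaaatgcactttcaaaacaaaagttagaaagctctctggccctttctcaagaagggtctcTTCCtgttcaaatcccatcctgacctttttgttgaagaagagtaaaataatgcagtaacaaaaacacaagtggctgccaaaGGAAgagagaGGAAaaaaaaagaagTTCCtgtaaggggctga
The Kdr window held 4 GGAA or TTCC matches, the Flt1 window 2 and the Emcn window 4, and 89.2% of the 32851 RefSeq mouse promoter windows of the same length hold at least 1. The longer AGGAAG or CTTCCT, which contains the core, occurred 0 times in Kdr, 1 time in Flt1 and 2 times in Emcn, against 23.9% of all windows. The GC box GGGCGG or CCGCCC occurred 1 time in Kdr, 2 times in Flt1 and 0 times in Emcn, against 24.6% of all windows. GC content was 61.0%, 73.0% and 39.5%, with a median of 51.5% over all windows. These matches describe the letters of each window only.

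The libraries held 8159442 to 12874809 counts, and levels are given as CPM, the counts per 1000000 counts of the library after TMM scaling of its size. The sST2-KO libraries differed from WT in other cell types too. Ucp1, the uncoupling protein that defines brown adipocytes, was at 5229 to 10522 CPM in WT and 153 to 1042 CPM in sST2-KO (log2 fold change -4.04 ± 0.87 SE, adjusted p = 0.0226). Acta1, the actin of skeletal muscle, was at 388 CPM in WT replicate 1, at 5.65 and 0.740 CPM in WT replicates 2 and 3, and at 1042 to 3906 CPM in sST2-KO. Alb, a gene of hepatocytes, was at 3192 CPM in WT replicate 2 and at most 23.7 CPM in the other libraries. Il1rl1 was at 1.77, 1.79 and 0.740 CPM in WT and 3.83, 8.19 and 14.0 CPM in sST2-KO (log2 fold change 2.56 ± 0.57, adjusted p = 0.0239). Those counts cover the whole gene, with the exons that sST2 shares with the membrane receptor ST2L, so they do not check the genotype. Tests are edgeR's (quasi-likelihood), with p-values adjusted over the 14542 genes by the Benjamini-Hochberg method, and a gene was called when its adjusted p was under 0.05 and its fold change above 2. The labels name no animal, and each library was taken as 1 mouse, as the study describes its groups.

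The 10 endothelial genes did not move in 1 direction. Plvap and Emcn were called higher and Kdr was called lower in sST2-KO BAT, and the other 7 did not pass the test. The 2 of 10 called higher stand beside 9.04% of all genes tested, and the 1 of 10 called lower beside 7.10%. The same genes had an adjusted p under 0.05 at any fold change, where the shares of all genes were 10.5% higher and 9.10% lower. The median log2 fold change of the 10 was 0.25, with 7 positive and 3 negative values, and that of all genes tested was 0.03. The median of the 10 was -0.02 without sST2-KO replicate 2 and 0.49 with total-count scaling, where that of all genes was 0.29. The WT and sST2-KO libraries did not overlap for 5 of the 10, namely Pecam1, Vwf, Emcn, Plvap and Kdr, and for 41.5% of all genes. In bulk tissue, fewer endothelial cells and less RNA per endothelial cell cannot be told apart.

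The sum of the 10 genes was 1472, 1623 and 1724 CPM in WT and 1679, 2347 and 1533 CPM in sST2-KO. The groups overlapped, and sST2-KO replicate 2 was the highest library. A list of 25 other pan-endothelial genes had sums of 2420.1, 2519 and 2766 CPM in WT and 2152, 3446 and 2008 CPM in sST2-KO. That sum was also highest in sST2-KO replicate 2. Its values in sST2-KO replicates 1 and 3 lay below every WT library, while those of the 10 genes lay within the WT range.

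**Figure D1:**
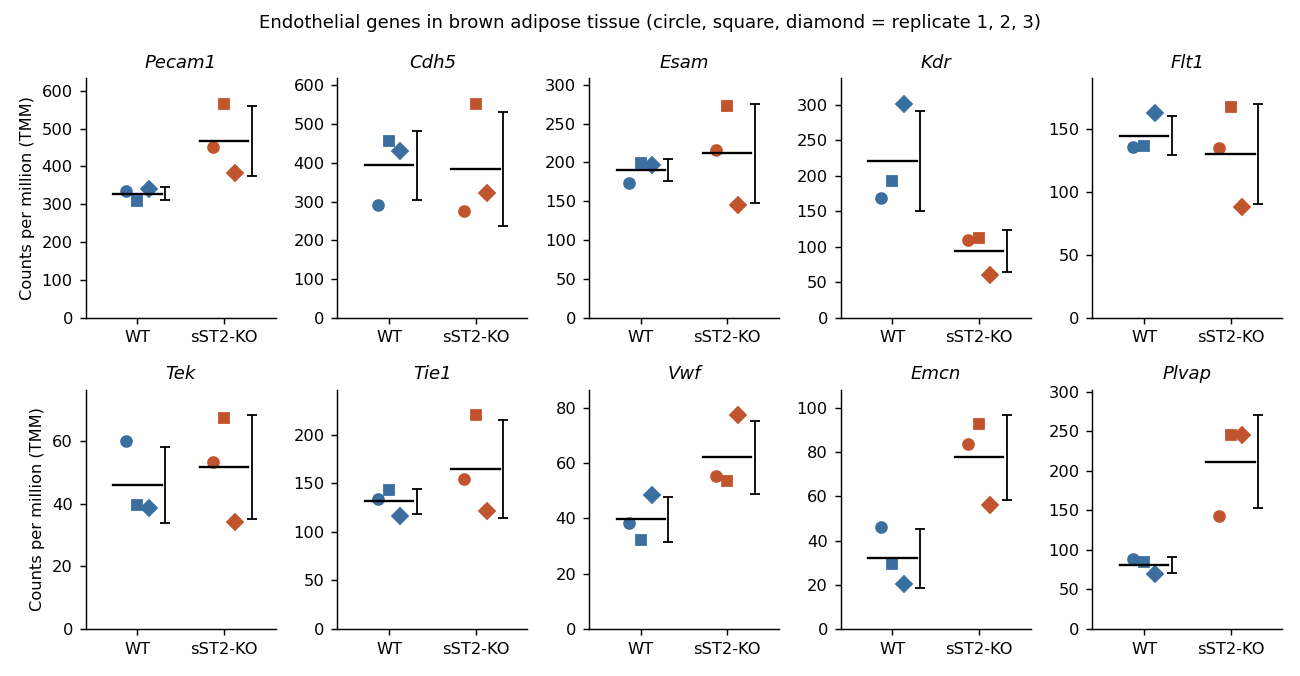
Level of each of the 10 endothelial genes, in CPM after TMM scaling on a linear axis from 0, in 3 WT (blue) and 3 sST2-KO (orange) libraries; horizontal lines are group means and error bars are SD. Plvap sits at 69.5 to 88.5 CPM in WT and 143 to 245 CPM in sST2-KO, Kdr at 169 to 301 and 60.2 to 112 CPM.

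Plvap (GRCm39, chromosome 8, bases 71948674 to 71964506, minus strand) was at 88.5, 84.5 and 69.5 CPM in WT and 143, 245 and 245 CPM in sST2-KO. Every sST2-KO library lay above every WT library, with replicate 1 the lowest of the knockouts. The means were 80.9 ± 10.01 and 211 ± 58.7 CPM (SD, n = 3), a 2.61-fold difference (log2 fold change 1.38 ± 0.26 SE, edgeR adjusted p = 0.0169). The adjusted p stayed under 0.05 without WT replicate 1 or without any 1 of the sST2-KO libraries, and was 0.0555 without WT replicate 2 and 0.0790 without WT replicate 3. Exons of Plvap overlap exons of Gtpbp3, a mitochondrial tRNA-modifying enzyme gene, on the other strand. The library kit does not mark strand, so reads of the shared exons cannot be told apart by strand. The strand setting of the counting is not given in the sources used here. Gtpbp3 was at 11.8 to 14.7 CPM in the 6 libraries (log2 fold change -0.12 ± 0.20, adjusted p = 0.710).

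Emcn, on chromosome 3 from 137046794 to 137138999 on the plus strand, was at 46.1, 29.4 and 20.1 CPM in WT and 83.8, 92.7 and 56.2 CPM in sST2-KO. The groups did not overlap, although WT replicate 1 and sST2-KO replicate 3 were closer to each other than to the ends of their own groups. The means were 31.9 ± 13.2 and 77.6 ± 19.0 CPM, a 2.43-fold difference (log2 fold change 1.28 ± 0.33, adjusted p = 0.0365). The adjusted p was 0.108 without WT replicate 2, 0.118 without WT replicate 3, 0.0742 without sST2-KO replicate 1 and 0.0939 without sST2-KO replicate 2, and the log2 fold change stayed between 1.04 and 1.64.

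Kdr, on chromosome 5 from 76093487 to 76139884 on the minus strand, went the other way. It was at 169, 193 and 301 CPM in WT and 110.0, 112 and 60.2 CPM in sST2-KO. The groups did not overlap, and the highest WT value and the lowest sST2-KO value were both those of replicate 3. The means were 221 ± 70.7 and 94.1 ± 29.4 CPM, and Kdr fell by 1.23 on the log2 scale (SE 0.33, edgeR adjusted p = 0.0390). This call was the least stable of the 3, since the adjusted p was 0.0817 without WT replicate 2, 0.137 without WT replicate 3, 0.0585 and 0.0589 without sST2-KO replicates 1 and 2, and 0.0775 without sST2-KO replicate 3. With libraries scaled to total counts, the log2 fold change was -0.95 (adjusted p = 0.0493), under the fold threshold.

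Flt1, the other VEGF receptor among the 10, lies on the same chromosome from 147498414 to 147662826 on the minus strand. It was at 135, 136 and 163 CPM in WT and 135, 167 and 88.2 CPM in sST2-KO. The WT values lay within the range of the sST2-KO values, and sST2-KO replicate 3 was the lowest library, as for Kdr. The log2 fold change was -0.15 ± 0.26 (adjusted p = 0.703), and it was 0.10 with total-count scaling. The ratio of Kdr to Flt1 counts within a library, which needs no scaling between libraries, was 1.25, 1.41 and 1.85 in WT and 0.815, 0.671 and 0.683 in sST2-KO. Kdr had more counts than Flt1 in all 3 WT libraries and fewer in all 3 sST2-KO libraries. The difference of the log2 ratios, sST2-KO minus WT, was -1.04, from 0.57 ± 0.29 to -0.47 ± 0.16 (SD, n = 3; two-sided exact permutation p = 0.1, the smallest that 3 against 3 libraries can give, and 0.2 adjusted over the 2 ratios tested).

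The Tie receptors showed no such shift. Tek, on chromosome 4 from 94627291 to 94763224, was at 59.9, 39.5 and 38.5 CPM in WT and 53.2, 67.3 and 34.2 CPM in sST2-KO. The highest and the lowest library were both sST2-KO (log2 fold change 0.17 ± 0.29, adjusted p = 0.720). Tie1, on the same chromosome from 118328385 to 118347261, was at 134, 143 and 117 CPM in WT and 154, 219.9 and 121 CPM in sST2-KO. The groups overlapped, with sST2-KO replicate 2 above the rest (log2 fold change 0.33 ± 0.25, adjusted p = 0.387). The ratio of Tek to Tie1 counts was 0.447, 0.276 and 0.329 in WT and 0.346, 0.306 and 0.282 in sST2-KO, and the difference of the log2 ratios was -0.15 (exact permutation p = 0.7, adjusted p = 0.7).

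The junction genes Pecam1, Cdh5 and Esam did not pass the test. Pecam1, on chromosome 11 from 106543689 to 106641454, was at 335, 309 and 340.3 CPM in WT and 452, 565 and 382 CPM in sST2-KO. All 3 sST2-KO libraries lay above WT, with means of 328 ± 16.8 and 466 ± 92.2 CPM (log2 fold change 0.51 ± 0.23, adjusted p = 0.153). With total-count scaling the value was 0.76 (adjusted p = 0.0437). Cdh5, on chromosome 8 from 104828231 to 104871143, was at 292, 457 and 430.3 CPM in WT and 276, 552 and 323 CPM in sST2-KO. Replicate 1 was the lowest in both groups, and the log2 fold change was -0.04 ± 0.33 (adjusted p = 0.949), or 0.22 with total-count scaling. Esam, on chromosome 9 from 37439344 to 37449615, was at 174, 199.8 and 196 CPM in WT and 216, 273 and 146 CPM in sST2-KO. Its sST2-KO values ran below and above all WT values (log2 fold change 0.16 ± 0.26, adjusted p = 0.701).

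Vwf, on chromosome 6 from 125523737 to 125663642, was at 38.4, 32.1 and 48.3 CPM in WT and 55.3, 53.5 and 77.2 CPM in sST2-KO. The groups did not overlap, and replicate 3 was the highest of each. The means were 39.6 ± 8.16 and 62.0 ± 13.2 CPM (log2 fold change 0.65 ± 0.23, adjusted p = 0.0846), and with total-count scaling the value was 0.93 (adjusted p = 0.0313). Vwf is also made by megakaryocytes and carried in platelets. Of 10 platelet and megakaryocyte markers, 6 were tested and 1 passed, the integrin Itgb3 (higher), and their summed level was 31.2 to 39.4 CPM in WT and 43.7 to 106 CPM in sST2-KO. Pf4, the defining platelet gene, was at 11.2 to 19.7 CPM in WT and at 12.8, 12.1 and 59.1 CPM in sST2-KO. In sST2-KO it was highest in replicate 3, as Vwf was, but in WT it was lowest in replicate 3, where Vwf was highest. Pf4 did not pass (edgeR adjusted p = 0.303). Of the other tested markers in sST2-KO, Itgb3 was at 17.1, 16.9 and 27.1 CPM and Itga2b at 10.04, 8.43 and 10.37 CPM. Ppbp was at 2.86, 3.44 and 4.94 CPM, and all of these were highest in replicate 3. Gp5 and Clec1b were at most at 1.19 CPM in sST2-KO. The summed macrophage markers were also highest in sST2-KO replicate 3, at 5976 CPM. The part of platelets or of macrophages in the Pf4 and Vwf values was not tested.

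**Figure D2:**
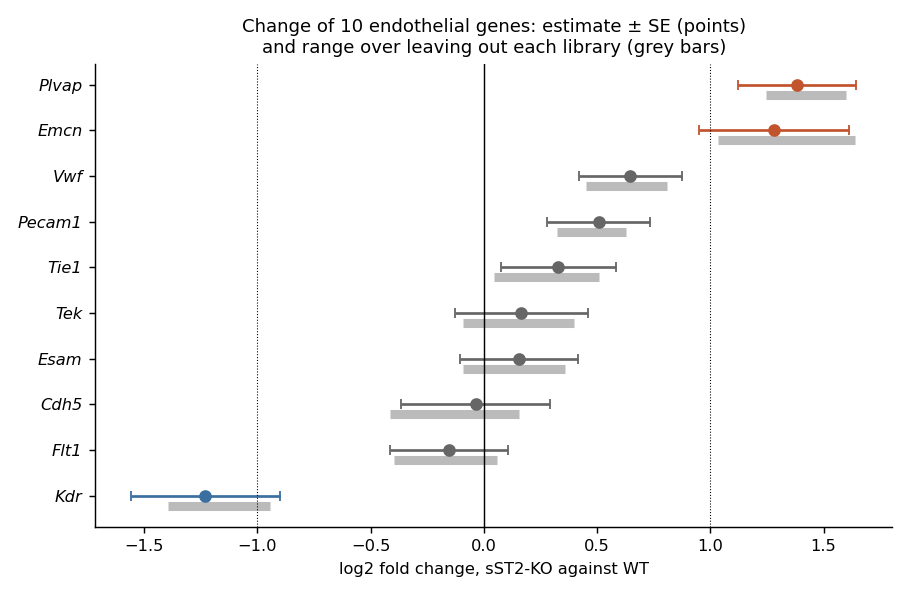
Log2 fold change of each endothelial gene in sST2-KO against WT BAT (points, error bars are SE; orange higher and blue lower at an adjusted p under 0.05, grey not passed), with the range of the estimate when each of the 6 libraries is left out in turn (grey bars); dotted lines mark a 2-fold change. Plvap, Emcn and Kdr stay on their own side of 0 throughout, and the bars of Tek, Esam, Cdh5 and Flt1 cross 0.

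The 10 genes were also set against each other within each library. Each gene's log2 count was taken relative to the mean log2 count of the 10 in that library. Kdr changed from 0.52, 0.77 and 1.38 in WT to -0.31, -0.65 and -0.94 in sST2-KO, from above to below the mean of the 10 in every library. Plvap crossed in the opposite direction, from -0.40, -0.42 and -0.73 to 0.07, 0.47 and 1.09. On this scale Flt1 also lay lower in all sST2-KO libraries, with a difference of the means of -0.48, and Pecam1 and Emcn lay higher in all of them, by 0.20 and 1.05. No share over all genes was computed on this scale, and Kdr, Plvap and Emcn were already the called genes. Tie1 was nearly level, at a mean of 0.18 in WT and 0.19 in sST2-KO. The Plvap to Kdr count ratio, a pair chosen after the values were seen and given with no test, was 0.525, 0.439 and 0.231 in WT and 1.302, 2.18 and 4.08 in sST2-KO. These offsets sum to 0 in each library, so a lower value for 1 gene sets the others higher.

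**Figure D3:**
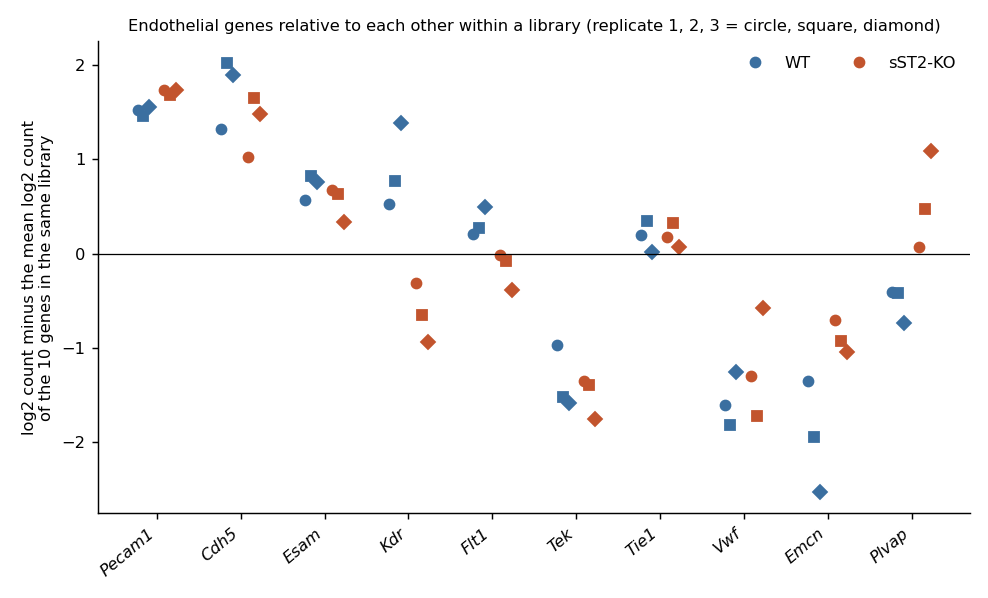
Log2 count of each endothelial gene minus the mean log2 count of the 10 genes in the same library (vertical axis), in WT (blue) and sST2-KO (orange) libraries, with replicates 1, 2 and 3 as circle, square and diamond. Kdr lies above 0 in every WT library and below 0 in every sST2-KO library, Plvap the reverse.

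Levels of different genes were compared per kb of the canonical transcript (CPM per kb). In WT BAT the order was Esam (100.2 ± 7.47), Cdh5 (97.8 ± 22.04), Pecam1 (89.2 ± 4.58), Plvap (38.6 ± 4.78), Kdr (37.3 ± 11.9), Tie1 (32.05 ± 3.25), Flt1 (21.0 ± 2.27), Emcn (12.2 ± 5.02), Tek (9.29 ± 2.44) and Vwf (4.49 ± 0.924). The 3 junction genes overlapped each other and stood apart from Plvap, while Plvap, Kdr and Tie1 overlapped. Tie1 and Flt1, Flt1 and Emcn, and Tek and Vwf did not overlap as neighbors, and Emcn and Tek did. In sST2-KO BAT, Pecam1 (127 ± 25.1) came first, Plvap (101 ± 28.01) moved to rank 3 among the junction genes, Emcn (29.6 ± 7.26) to rank 6 and Kdr (15.9 ± 4.96) to rank 8, and only Cdh5 and Tie1 were neighbors without overlap. With the length of all annotated exons in place of the canonical transcript, Cdh5 was first in both groups and Plvap was at rank 6 in WT and rank 3 in sST2-KO.

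The lists of related genes below were chosen with earlier results of these data known. By the same test, 10.5% of all genes tested were higher and 9.10% lower at an adjusted p under 0.05. The counts of genes that rose or fell in a list stand beside these shares and were not tested against them. Of the 25 other pan-endothelial genes, Cd93 rose, Tmem204 fell and 23 did not pass the test, with a median log2 fold change of -0.06. Cd93, a C-type lectin-like receptor of the endothelial surface, was at 115, 110.2 and 112 CPM in WT and 171, 289.9 and 222 CPM in sST2-KO, without overlap (log2 fold change 1.02 ± 0.23, adjusted p = 0.0261). Tmem204, a membrane protein of endothelial junctions, fell by 1.00 on the log2 scale (SE 0.26, adjusted p = 0.0352), but did not pass with total counts (log2 fold change -0.75, adjusted p = 0.0793). The most abundant of the others were S1pr1, the receptor for sphingosine 1-phosphate, at 351 ± 22.5 CPM in WT and 329.7 ± 147 CPM in sST2-KO (adjusted p = 0.869), and Eng, a TGF-β co-receptor, at 348 ± 83.1 and 282 ± 84.7 CPM (adjusted p = 0.505).

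Among the 8 VEGF ligands and other VEGF receptors, Vegfb fell and 7 did not pass, at a median of -0.04. Vegfb, a ligand of FLT1 abundant in fatty and oxidative tissues, was at 92.7, 110.4 and 148 CPM in WT and 52.5, 49.7 and 19.2 CPM in sST2-KO (log2 fold change -1.53 ± 0.39, adjusted p = 0.0343). The groups did not overlap, and replicate 3 gave the highest WT value and the lowest sST2-KO value, as for Kdr. Vegfa, the main ligand of KDR, was at 536, 449 and 680.3 CPM in WT and 497, 471 and 304 CPM in sST2-KO, and did not pass (log2 fold change -0.39 ± 0.28, adjusted p = 0.361). The co-receptor Nrp1 was at 180.3 ± 18.8 and 152 ± 34.9 CPM (adjusted p = 0.466).

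Angpt1 and Angpt2, both ligands of TEK, rose, and Angpt4, another ligand, did not pass the filter on low counts. Of 4 tested genes of the angiopoietin-Tie list, 2 rose and 2 did not pass. Angpt1, the agonist made largely by cells around the vessel, was at 7.56, 6.69 and 2.96 CPM in WT and 27.7, 22.2 and 12.5 CPM in sST2-KO (log2 fold change 1.85 ± 0.43, adjusted p = 0.0269). Angpt2, released by endothelial cells and able to oppose ANGPT1, was at 10.9, 13.3 and 16.6 CPM in WT and 26.9, 52.9 and 61.9 CPM in sST2-KO (log2 fold change 1.79 ± 0.34, adjusted p = 0.0168). The groups did not overlap for either ligand, and the order of the sST2-KO libraries was opposite, with replicate 3 the lowest for Angpt1 and the highest for Angpt2. Svep1, a large extracellular matrix protein that binds TIE1, was at 140.2 ± 41.2 and 153 ± 42.5 CPM (adjusted p = 0.796).

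Of 12 junction partners, 2 fell and 10 did not pass, at a median of -0.15. Jup, the plakoglobin that binds VE-cadherin, fell by 1.18 on the log2 scale (150.3 ± 29.9 to 66.2 ± 19.4 CPM, adjusted p = 0.0273). Cd99l2, an adhesion protein used by leukocytes crossing the vessel wall, fell by 0.76 (adjusted p = 0.0239), but did not pass with total counts (log2 fold change -0.49, adjusted p = 0.0603). The tight junction gene Cldn5 was at 235, 485 and 379 CPM in WT and 327, 509 and 162 CPM in sST2-KO, a wide spread in both groups (adjusted p = 0.848). Of 21 transcription factors of endothelial cells, 4 rose, Mef2c, Ets2, Ets1 and Elk3, 1 fell, Sox18, and 16 did not pass. The median of the 21 was 0.12, 12 had an unadjusted p under 0.05 by edgeR, and 8 passed by DESeq2. Mef2c, which also acts in muscle and leukocytes, rose by 1.63 ± 0.45 on the log2 scale (adjusted p = 0.0433). It was at 19.5 CPM in WT replicate 1 against 7.07 and 7.15 CPM in WT replicates 2 and 3. The ETS factors Ets2 and Ets1 had log2 fold changes of 0.93 ± 0.21 and 0.86 ± 0.24 (adjusted p = 0.0244 and 0.0426). Neither passed with libraries scaled to the 25 other pan-endothelial genes (adjusted p = 0.0602 and 0.0755). The part of leukocytes in these values was not tested. Sox18, a factor of vascular and lymphatic development, was at 61.0, 64.0 and 87.7 CPM in WT and 32.2, 39.2 and 23.5 CPM in sST2-KO (log2 fold change -1.16 ± 0.25, adjusted p = 0.0215). None of the 12 tested arterial and Notch genes passed by edgeR or by DESeq2, 0 had an unadjusted p under 0.05, and their median was 0.05. The most abundant of them were Notch4 (log2 fold change -0.54, adjusted p = 0.294), Notch1 (0.10, 0.761) and the Notch ligand Jag2 (-0.85, 0.173).

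Among 15 genes of capillary endothelium and fatty acid transport, 3 fell, none rose and 12 did not pass, at a median of -0.86 (8 passed by DESeq2). Timp4, an inhibitor of matrix proteases, was at 142, 122 and 186 CPM in WT and 72.9, 45.3 and 30.6 CPM in sST2-KO (log2 fold change -1.60 ± 0.34, adjusted p = 0.0215). Btnl9, a butyrophilin-like gene of capillaries, fell by 1.36 (adjusted p = 0.0465) and Slc27a4, a fatty acid transporter, by 1.01 (adjusted p = 0.0237), and neither passed with total counts (adjusted p = 0.0836 and 0.0534). Several genes of this list, such as Cd36 and Fabp4, are also abundant in adipocytes. Of 10 adipocyte markers, 2 fell by edgeR, 7 had an unadjusted p under 0.05, and 6 passed by DESeq2. Their sum was 17056 to 19896 CPM in WT and 6240.1 to 11976 CPM in sST2-KO. All 9 brown adipocyte markers fell, with sums of 8688 to 16636 and 356 to 1948 CPM. The part of adipocytes in these values was not tested.

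The genes of leukocyte adhesion and activation showed the opposite sign. Of 7 tested, 5 rose (Selp, Sele, Ackr1, Cd200 and Icam1), none fell and 2 did not pass, at a median of 1.57. The shares of all genes tested were 10.5% higher and 9.10% lower. Selp, the P-selectin that Weibel-Palade bodies and platelets bring to the surface, was at 12.6, 8.58 and 6.78 CPM in WT and 62.5, 114 and 121 CPM in sST2-KO. The lowest knockout value was well above the highest WT value, and the log2 fold change was 3.41 ± 0.35 (adjusted p = 0.00900). The adjusted p stayed at or under 0.0482 whichever library was left out. Sele, the E-selectin of activated endothelium, was at 2.99, 2.07 and 2.71 CPM in WT and 7.39, 10.6 and 9.58 CPM in sST2-KO (log2 fold change 1.82 ± 0.30, adjusted p = 0.0148). Ackr1, a chemokine-binding receptor of venules, was at 15.6, 5.94 and 6.66 CPM in WT and 25.4, 27.1 and 43.6 CPM in sST2-KO (log2 fold change 1.76 ± 0.42, adjusted p = 0.0288).

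Of 10 tested genes of Weibel-Palade bodies and Vwf handling, 4 rose (Unc13d, Rab27a, Edn1 and Ece1), none fell and 6 did not pass, at a median of 0.50. Rab27a, a small GTPase of granule exocytosis, was at 7.65, 4.43 and 5.55 CPM in WT and 23.4, 18.4 and 29.3 CPM in sST2-KO (log2 fold change 2.01 ± 0.30, adjusted p = 0.0135). Unc13d, which primes granules for release, rose by 2.02 ± 0.36 on the log2 scale (adjusted p = 0.0156). Edn1, the precursor of the vasoconstrictor endothelin-1, was at 9.05, 6.03 and 10.1 CPM in WT and 14.8, 15.4 and 33.3 CPM in sST2-KO (log2 fold change 1.34 ± 0.38, adjusted p = 0.0481, which was 0.0504 with another scaling factor, RLE). Rab27a and Unc13d also serve leukocyte granules, and all 8 leukocyte markers rose, with a median of 2.29 and sums of 258 to 363 CPM in WT and 921 to 2117 CPM in sST2-KO. Their defining marker Ptprc, the pan-leukocyte CD45, was at 24.3 to 40.1 and 125 to 283 CPM. The part of leukocytes in the endothelial values was not tested.

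Of 14 tested tip cell and sprouting genes, 5 rose (Esm1, Aplnr, Mcam, Adm and Plaur), none fell and 9 did not pass, at a median of 0.65. Esm1, a secreted proteoglycan of sprouting tips, had 0 counts in all 3 WT libraries and 23, 11 and 24 counts in sST2-KO (adjusted p = 0.0143). Against a floor of 3 counts over the WT group it was at least 17.3-fold higher. Aplnr, the apelin receptor, was at 9.61, 5.65 and 1.85 CPM in WT and 20.6, 45.0 and 62.8 CPM in sST2-KO (log2 fold change 2.89 ± 0.61, adjusted p = 0.0213). Mcam, an adhesion molecule of endothelial and mural cells, was at 115, 125 and 79.0 CPM in WT and 194, 411 and 188 CPM in sST2-KO (log2 fold change 1.31 ± 0.36, adjusted p = 0.0421). With Esm1 placed at its lower bound the median of the list keeps its value, since Esm1 stays above it. The part of leukocytes, whose markers all rose, in the values of this list was not tested.

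**Figure D4:**
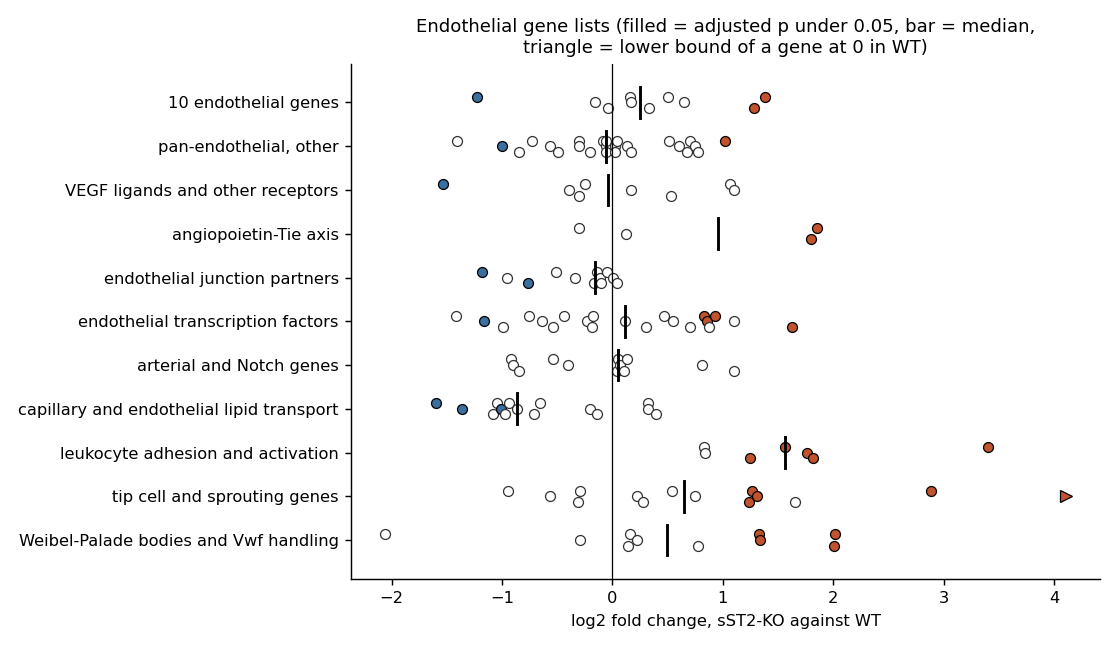
Log2 fold change in sST2-KO against WT BAT of each tested gene in the 10 endothelial genes and 10 related lists (horizontal axis; filled points have an adjusted p under 0.05, vertical bars are list medians, the triangle is the lower bound of Esm1). The medians run from -0.86 for capillary and lipid transport genes to 1.57 for leukocyte adhesion and activation genes.

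Most of these single calls did not pass without WT replicate 2 or without WT replicate 3. By edgeR, 5269 genes had an unadjusted p under 0.05 with all 6 libraries, and 3797 without WT replicate 3. Without WT replicate 3 the number of genes with an adjusted p under 0.05 went from 2847 to 58, and without WT replicate 2 to 876, and without any 1 of the other libraries it was 1416 to 2520. Without WT replicate 3, 27 of the 28 named genes that passed, Ucp1 and Il1rl1 included, no longer did, all but Selp. Without WT replicate 2, 23 of them no longer did, and Selp, Sele, Esm1, Unc13d and Rab27a still passed. Their log2 fold changes kept their sign in every such fit.

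Other cell types of the vessel wall and the blood were measured in the same libraries. None of 10 mural cell markers passed by edgeR (5 had an unadjusted p under 0.05, and 2 passed by DESeq2), their median was -0.62, and the sum was 782 to 864 CPM in WT and 392 to 665 CPM in sST2-KO, so the groups of this sum did not overlap. Of the defining mural genes, Pdgfrb was at 56.6 to 87.5 CPM in WT and 56.9 to 71.4 CPM in sST2-KO, and Rgs5 at 339.6 to 465 and 119 to 251 CPM without overlap (log2 fold change -0.95, adjusted p = 0.0741). None of 5 tested lymphatic endothelial markers passed by edgeR (2 had an unadjusted p under 0.05, and 3 passed by DESeq2), and Prox1, which defines that lineage, was at 0 to 1.32 CPM in the 6 libraries. Of 9 macrophage markers 1 rose, Lyz2, with sums of 857 to 1173 CPM in WT and 1403, 1388 and 5976 CPM in sST2-KO, the last in replicate 3. All 5 tested erythrocyte genes fell, from sums of 485 to 1587 CPM to sums of 11.2 to 108 CPM. Of 12 skeletal muscle genes 1 passed by edgeR, Pvalb (higher), 10 had an unadjusted p under 0.05, and 4 passed by DESeq2. Their sums were 1355, 23.5 and 8.14 CPM in WT and 7137, 3837 and 16491 CPM in sST2-KO. None of 8 fibroblast markers passed by edgeR (1 had an unadjusted p under 0.05, and 1 passed by DESeq2), with sums of 2049 to 6321 and 1172 to 10166 CPM, and 2 of 6 tested Schwann cell and neuron genes fell. Of 5 tested liver genes 2 fell, Alb and Apoa2, both highest in WT replicate 2. The part of these cells and of mixed-in tissue in the values of the 10 endothelial genes was not tested. With libraries scaled to the 25 other pan-endothelial genes, an alternative chosen after the data were seen, the log2 fold changes were 1.46 for Plvap, 1.33 for Emcn and -1.19 for Kdr (adjusted p = 0.0106, 0.0173 and 0.0304), beside 1.38, 1.28 and -1.23 with TMM, and the median of all genes was 0.13. Of the 28 named genes that passed with TMM, 6 did not pass with that scaling, namely Tmem204 (adjusted p = 0.0749), Cd99l2 (0.188), Ets2 (0.0602), Ets1 (0.0755), Btnl9 (0.0535) and Slc27a4 (0.137), and their signs were kept.

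**Figure D5:**
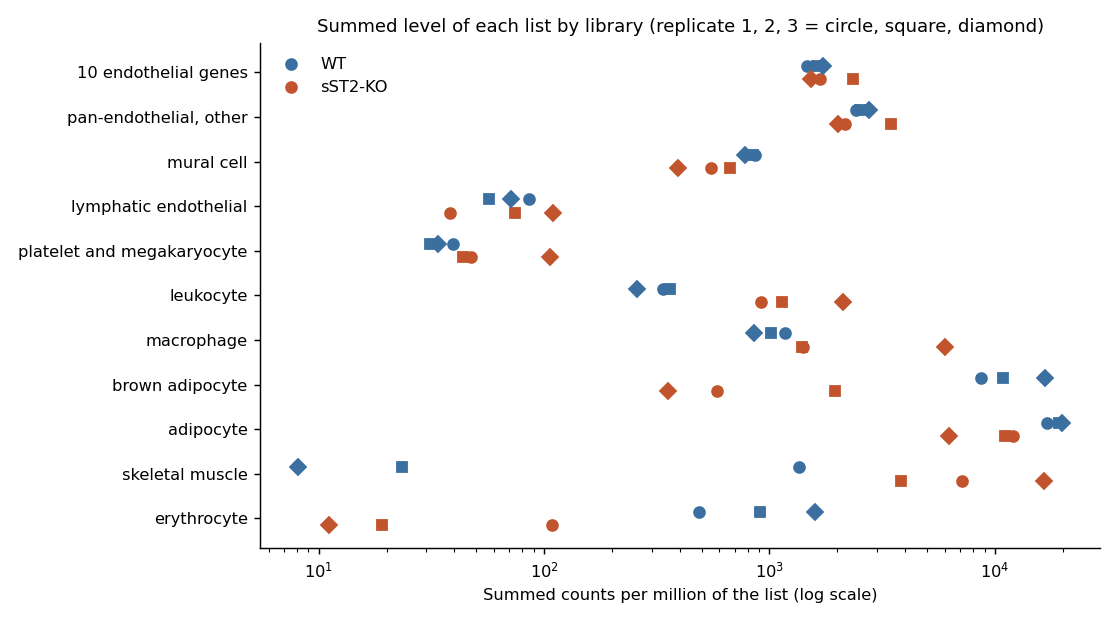
Summed CPM (log axis) of the 10 endothelial genes, the 25 other pan-endothelial genes and 9 lists of other cell types, in WT (blue) and sST2-KO (orange) libraries, with replicates 1, 2 and 3 as circle, square and diamond. The endothelial sums overlap between the groups, while the leukocyte sums are higher and the brown adipocyte and erythrocyte sums lower in all sST2-KO libraries.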

How the data were processed

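RNA from BAT of 3 WT and 3 sST2-KO mice was extracted with Trizol and sequenced as 150 bp paired-end reads from libraries made with NEBNext Ultra, a kit that does not mark strand. Per the labels and the study's methods, the authors checked reads with FastQC 0.12.1, aligned them with HISAT2 2.2.1 to mm39 and deposited raw read counts per gene, made with htseq-count. The annotation and the strand setting are not given in the sources used here.

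From the 35976 rows, filterByExpr kept 14542 genes. Counts were scaled by TMM and tested with edgeR 4.0.16 (quasi-likelihood, R 4.3.3) between the 2 groups, with no covariate, with Benjamini-Hochberg adjustment over all genes tested. Called genes had an adjusted p under 0.05 together with a change of more than 2-fold. DESeq2 1.42.0, other scalings and filters, a replicate block and each library left out were alternatives. The steps were tested on simulated data. Log2 ratios of 2 receptor pairs used counts plus 0.5 and an exact two-sided permutation test over libraries. Positions and transcript lengths are from GENCODE on GRCm39, and promoter windows from RefSeq, which had 5 of the 10 genes; 2 of these overlapped an annotated exon and were left out.

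The libraries held 8159442 to 12874809 counts, and the common biological coefficient of variation was 0.325. No 2 libraries of a group agreed within sampling noise (chi-square per degree of freedom 40.1 to 114). The named genes were the 10 members, Il1rl1 and Ucp1, and from each list the 3 (4 in lists over 20 genes) with the largest change among those with an adjusted p under 0.05, filled up with the most abundant. Other genes named to complete a count of 5 or fewer were chosen after their values were seen. The members and lists were chosen with earlier results of these data known.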

Additional observations from a re-analysis of the deposited data

How the results depend on the processing

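Members called higher numbered 2 and members called lower 1 with RLE factors, with TMM computed without mitochondrial, muscle, liver and erythrocyte genes, with no filter, with at least 10 counts in every sample, with robust estimation, with DESeq2, with libraries scaled to the 25 other pan-endothelial genes and with a fold threshold of 1.5 or none. With total counts 2 were called higher and 0 lower, 5 members had an adjusted p under 0.05 in place of 3, and the median of the 10 was 0.49 in place of 0.25, while that of all genes tested was 0.29. Under that scaling the log2 fold changes of Cdh5 (0.22), Flt1 (0.10), S1pr1 (0.16) and Cldn5 (0.11) turned positive. Of the 28 named genes that passed, 4 did not pass with total counts and 6 not with the pan-endothelial scaling, with Tmem204, Cd99l2, Btnl9 and Slc27a4 in both, and 1, Edn1, not with RLE factors. With a replicate block, 0 members were called higher, 0 lower and 0 had an adjusted p under 0.05 by edgeR (4 had an unadjusted p under 0.05), the median was 0.22, and 0 of all genes tested passed, against 4623 with an unadjusted p under 0.05. The labels do not say whether libraries with the same replicate number share a batch or pair. The correlations of same-numbered deviations from the group means were -0.06, 0.21 and -0.31, which cannot settle that. Leaving out each library gave 0 to 2 members called higher, 0 to 1 lower, 0 to 3 with an adjusted p under 0.05, and a median from -0.0227 to 0.418, the lowest without sST2-KO replicate 2. The Kdr to Flt1 difference ran from -1.17 to -0.88 and the Tek to Tie1 difference from -0.307 to 0.0406, the last without WT replicate 1. Among genes that did not pass, the log2 fold change over such fits ran through 0, from -0.414 to 0.156 for Cdh5, from -0.397 to 0.0568 for Flt1, from -0.0911 to 0.360 for Esam, from -0.0941 to 0.398 for Tek, from -0.0690 to 0.252 for Notch1, from -0.523 to 0.149 for S1pr1, from -0.605 to 0.190 for Cldn5 and from -0.142 to 0.343 for Svep1. The cause of these changes was not tested. With 0 counts of Esm1 in WT, the depth gives only a lower bound on its change.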
